A study of Homo sapiens with 10 samples.

Results

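The genes described here encode axon guidance cues and their receptors: the Eph receptors and their ephrin ligands, the semaphorins of classes 3 to 7 and their plexin receptors, the neuropilins NRP1 and NRP2, the Slit ligands and Robo receptors, and NTN1 (netrin-1) with its receptors DCC and UNC5B. They were chosen by gene symbol, which gave 62 of the 32152 genes in the count table: 14 Eph receptors, 8 ephrins, 20 semaphorins, 9 plexins, 2 neuropilins, 3 Slits, 3 Robos and the 3 netrin genes. Eph receptors are receptor tyrosine kinases that bind ephrins held on the surface of a neighbouring cell, and both the receptor cell and the ephrin cell can respond. Semaphorins are secreted or membrane-bound and signal through plexins, with the neuropilins as co-receptors for most secreted ones, while Slits bind Robos and netrin-1 binds DCC and the UNC5 receptors. These molecules are known for steering growth cones, sorting cells at tissue boundaries and patterning vessels, and many are transcribed before any neuron or vessel has formed.

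PolyA RNA was sequenced from the embryonic stem cell line WAe009-A (H9), in 5 libraries of KCNH2 knockout (KO) cells and 5 of wild-type (WT) cells described as isogenic. The KO titles carry the prefix 57-KO, the growth protocol writes KCNH2-/- and the genotype field reads KCNH2 knockdown. No label says whether the KO cells were 1 clone. The product of KCNH2 is the potassium channel hERG1, and the series asks which transcripts depend on it in undifferentiated cells. KO cells grew in mTeSR Plus and WT cells in TeSR-E8, all on Matrigel for at least 4 days to about 80% confluency, so the effect of the genotype and that of the medium cannot be told apart. No label states that the replicates of a group were separate cultures, so the p-values rest on a spread that could be technical. In bulk RNA, fewer cells with a transcript and less of it per cell cannot be told apart.

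KCNH2 mRNA (chr7:150944961-150978315, GRCh38) was measured at 11.2, 13.2, 13.2, 12.1 and 11.2 counts scaled to the library total (CPM) in KO libraries 1 to 5 and at 14.9, 16.1, 14.7, 16.4 and 15.4 CPM in WT libraries 1 to 5. The groups did not overlap, and the log2 fold change was -0.35 (SE 0.06, adjusted p = 6.48e-04). Each adjusted p, here and below, comes from the quasi-likelihood test of edgeR and was adjusted by the Benjamini-Hochberg method over all genes tested. Where the edit lies is not stated in the labels, and counts over the gene as a whole say nothing of the channel protein. Library totals ran from 28615751 to 47319933 counts, and a count of 0 allows up to 3 counts, or 0.0634 to 0.105 CPM. On the second principal component of log2 CPM, which held 28.3% of the variance, KO library 3 (-59.1) and WT libraries 3 (-32.2) and 2 (-10.1) stood apart from the rest of their groups, which lay at -2.3 to 13.9 and at 25 to 35.8. Calls of guidance genes that rest on these 3 libraries are given with and without them. The marker counts below use all libraries.

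The 10 pluripotency markers were all measured, at 7859 to 8280 CPM summed in the KO libraries and 7021 to 7331 in WT, with 5 of them higher in the KO (POU5F1 by 0.30 on the log2 scale) and none lower. Markers of other cell types were scarcer. Summed CPM of 10 neural markers was 91.9 to 113 in the KO and 105 to 121 in WT (2 higher and 3 lower of 5 tested), with PAX6 and SOX1 under 0.1 CPM in both groups. Most of that sum was TUBB3, at 73.3 CPM in the KO and 87.8 in WT. TUBB3, DCX and MAP2 fell. STMN2 rose by 2.34 (adjusted p = 3.28e-09), from 2.8 CPM in WT to 14.2 in the KO, and ELAVL3 rose by 0.62 (adjusted p = 0.0204). Summed endothelial markers were at 85.4 to 89 CPM in the KO and 81.8 to 86 in WT (2 higher and 4 lower of 6 tested). KDR held most of that sum, at 69.3 CPM in the KO and 64.1 in WT. KDR and TEK rose, while CDH5, TIE1, ERG and VWF fell. The largest of these falls was that of ERG, by 2.34, from 3.36 CPM in WT to 0.668 in the KO. Mesenchymal markers summed to 166 to 187 CPM in the KO and 256 to 265 in WT (0 higher and 3 lower of 5). Neural crest markers were at 45.2 to 48.6 and 55.5 to 60.6 (1 higher and 2 lower of 4) and endoderm markers at 1.56 to 1.68 and 3.72 to 6.62 (0 higher and 2 lower of 2). Of 4 mesoderm markers only MIXL1 was tested and it was not called. For these counts, the shares over all tested genes were 24.1% lower and 21.9% higher. ELAVL4 had no count in the KO libraries and COL3A1 none in the WT libraries. The part of these other cell types' transcripts in the results below was not tested.

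More guidance genes were lower than higher in the KO. Of 60 members tested, 27 fell (45%), 6 rose (10%) and 27 were not called, at an adjusted p under 0.05. Over all 19163 genes tested, 24.1% fell and 21.9% rose. The members' median log2 fold change was -0.16, against 0.00 over all tested genes. EPHA3 and EPHA5, at 0.17 and 0.15 CPM in the KO and 0.29 and 0.19 CPM in WT, were too low to test. The KO libraries all lay below the WT libraries for 24 members and all above them for 4, where the shares over all tested genes were 17.7% and 16.3%.

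Most differences were small. A fall of more than 1 on the log2 scale was called for EPHB3, PLXNA4 and SLIT2, and a rise of that size for NRP1, against 1.94% of all tested genes lower and 1.32% higher by that much. Tested against a log2 fold change of 0.5 (glmTreat), 5 members were lower (EPHB1, EPHB3, EFNB1, PLXNA4 and SLIT2) and NRP1 was the 1 higher, against 2.46% and 1.33% of all tested genes. Without KO library 3 and WT libraries 2 and 3, 26 of 61 tested members were lower and 5 higher, against 18.5% of all genes in each direction. Between them, the receptors (Eph receptors, plexins, neuropilins, Robos, DCC and UNC5B) had 17 lower (60.7%) and 3 higher (10.7%) of 28 tested. The ligands had 10 lower (31.2%) and 3 higher (9.38%) of 32, against 24.1% and 21.9% of all tested genes. With each library's trend on transcript length and GC content taken out as an offset, the receptors had 14 lower and 6 higher. With it the ligands had 9 lower and 8 higher, against 22.1% and 22.6% of all tested genes.

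**Figure D1:**
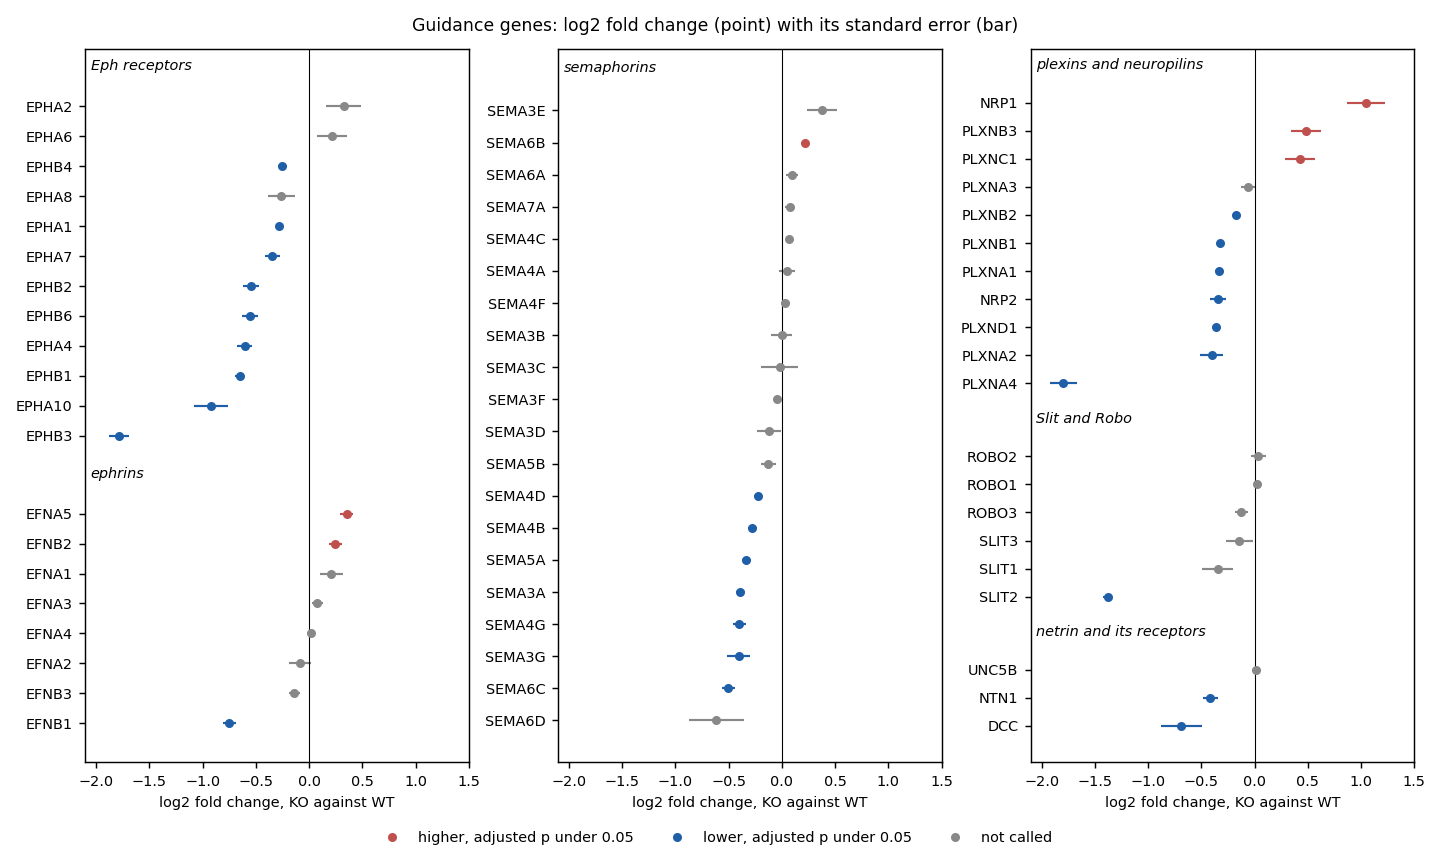
Log2 fold change of each tested guidance gene, KO against WT (x axis), with its standard error as a bar, grouped by family. Blue points were lower and red points higher at an adjusted p under 0.05, and grey points were not called. EPHB3, PLXNA4 and SLIT2 lie below -1 and NRP1 lies just above 1.

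The promoters of the 3 genes with falls past 1 are shown because these are the members whose mRNA moved the most. Each window runs from 250 bases before to 50 bases after the RefSeq transcription start (GRCh38.p14), 5′ to 3′ on the gene's strand, with capitals marking the GC box GGGCGG on either strand. They lie at chr7:132576421-132576720 (minus strand), chr3:184561535-184561834 (plus strand) and chr4:20251655-20251954 (plus strand).
PLXNA4: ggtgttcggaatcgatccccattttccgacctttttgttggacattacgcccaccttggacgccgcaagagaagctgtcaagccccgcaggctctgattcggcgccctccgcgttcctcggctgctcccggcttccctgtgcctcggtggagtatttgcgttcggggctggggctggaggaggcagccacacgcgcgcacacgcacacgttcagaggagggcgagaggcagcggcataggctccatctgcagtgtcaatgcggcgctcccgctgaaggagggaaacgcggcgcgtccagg
EPHB3: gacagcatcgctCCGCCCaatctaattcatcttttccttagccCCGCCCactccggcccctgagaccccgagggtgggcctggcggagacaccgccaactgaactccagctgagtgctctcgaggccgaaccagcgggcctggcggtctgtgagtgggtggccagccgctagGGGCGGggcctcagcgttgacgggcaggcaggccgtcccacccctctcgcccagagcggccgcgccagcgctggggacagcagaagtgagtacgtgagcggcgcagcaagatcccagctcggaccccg
SLIT2: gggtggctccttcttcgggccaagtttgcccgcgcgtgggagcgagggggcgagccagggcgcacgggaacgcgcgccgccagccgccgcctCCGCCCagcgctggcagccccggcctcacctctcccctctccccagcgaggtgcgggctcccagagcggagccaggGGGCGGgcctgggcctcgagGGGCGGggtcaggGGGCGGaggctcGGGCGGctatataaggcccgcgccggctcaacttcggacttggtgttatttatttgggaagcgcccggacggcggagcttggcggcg
The PLXNA4 window held no GC box, the EPHB3 window held 3 and the SLIT2 window 5. Their G and C content was 64.3%, 69.0% and 74.3%. None held the exact string TATAAA. The SLIT2 window does hold the similar string ctatataagg, which the exact search did not count. Variants of TATAAA were not searched, so the absence of a match does not show that a window lacks a TATA box. Taking the first window listed for each gene, a GC box was found in 42 of the 54 members with a RefSeq window (77.8%) and in 44.6% of 27305 genes, and TATAAA in 1 of 54 (1.85%) and 12.0%. Among members called lower, 22 of 24 windows held a GC box, and among those called higher, 4 of 4. The rest of the 42 belonged to members that were not called or not tested. The 27305 genes were not limited to genes expressed in these cells. Whether the GC box goes with a call was not tested. CCAAT occurred in 35.2% of member windows and 35.7% of all, CANNTG in 61.1% and 68.9%, and TGANTCA in 1.85% and 7.76%, each searched on both strands. The EPHB3 window meets the start of the gene in GENCODE 29, the SLIT2 window lies just upstream of it, and the PLXNA4 window lies inside the gene, downstream of its outermost annotated start. A match is a string of letters and does not show a bound factor.

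Among the Eph receptors no member rose. Of 12 tested, 9 fell, with no overlap between the groups for any of the 9, and 3 were not called (EPHA2, EPHA6 and EPHA8). The 9 are 75% of those tested. Over all tested genes 24.1% fell, and 17.7% were lower without overlap. All 5 EphB receptors, which mainly bind the ephrin-B ligands, were among the 9. EPHB3 (ENSG00000182580, chr3:184561784-184582409) had the largest fall of them, with 2.15, 1.86, 1.73, 2.06 and 2.08 CPM in KO libraries 1 to 5 and 6.85, 7.23, 7.54, 6.42 and 5.98 CPM in WT libraries 1 to 5. Every KO library was below every WT library, and the log2 fold change was -1.79 (SE 0.09, adjusted p = 7.15e-08), a fall of 71.0%. EPHB1 was measured at 8.80, 9.51, 9.31, 9.24 and 8.57 CPM in the KO and 14.8, 14.4, 14.3, 13.6 and 14.3 CPM in WT. Its libraries were tight within each group and separate between them, and it fell by 0.65 (SE 0.05, adjusted p = 9.69e-07). EPHB2 was at 21.5, 20.9, 16.8, 15.9 and 18.3 CPM in the KO and 26.7, 27.4, 26.6, 28.1 and 27.6 CPM in WT. KO libraries 3 and 4 were the lowest, and the fall was 0.55 (SE 0.08, adjusted p = 1.33e-04). EPHB6, whose kinase domain is inactive, gave 19.1, 20.3, 15.1, 15.4 and 17.3 CPM in the KO and 25.2, 26.4, 26.7, 25.5 and 24.2 CPM in WT. It had the same 2 lowest libraries and fell by 0.56 (SE 0.08, adjusted p = 1.30e-04). EPHB4, the receptor for ephrin-B2 best known from veins, had the smallest fall of the 5, from 168 ± 6.13 to 141 ± 7.37 CPM (SD, n = 5), or 0.25 on the log2 scale (adjusted p = 2.92e-04). Exons of EPHB4 overlap those of SLC12A9 on the opposite strand (49.2 CPM in the KO and 51.3 in WT), and the sources used here do not say whether the counting used strand.

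Of the 7 EphA receptors tested, 4 fell (57.1%, against 24.1% of all tested genes). EPHA1 (ENSG00000146904, chr7:143390289-143408892), the most abundant Eph receptor per transcript length, was measured at 228, 226, 237, 228 and 214 CPM in the KO and 276, 275, 271, 287 and 268 CPM in WT. The groups were separate, and EPHA1 fell by 0.28 (SE 0.03, adjusted p = 1.92e-05), or by 17.8%. EPHA1 shares exonic sequence with ZYX on the opposite strand, which stood at 230 CPM in the KO and 183 in WT, the other direction. EPHA4, which can bind ephrins of both classes, was at 5.37, 5.62, 5.10, 5.12 and 4.61 CPM in the KO and 7.26, 7.66, 7.98, 8.79 and 7.58 CPM in WT. It fell by 0.61 (SE 0.07, adjusted p = 4.98e-05), with a clear gap between the groups. EPHA7 gave 10.98, 8.76, 9.89, 10.8 and 10.02 CPM in the KO and 12.1, 12.3, 12.5, 13.6 and 13.5 CPM in WT, with KO library 2 the lowest. The groups did not overlap, and the fall was 0.34 (SE 0.07, adjusted p = 0.0013). EPHA10, another receptor with an inactive kinase domain, was near the lower end of what was tested, with 1.24, 1.08, 0.780, 0.840 and 0.825 CPM in the KO and 1.62, 1.74, 1.58, 2.11 and 2.01 CPM in WT, from 166 and 351 counts in all. It fell by 0.92 (SE 0.16, adjusted p = 5.29e-04), again without overlap.

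EPHA2, an Eph receptor of epithelial cells, was uneven among the KO libraries. It was at 45.2, 52.4, 93.7, 80.2 and 62.8 CPM in KO libraries 1 to 5 and at 55.8, 52.7, 53.7, 53.3 and 51.8 CPM in WT libraries 1 to 5. KO libraries 3, 4 and 5 lay above all WT libraries and KO libraries 1 and 2 did not, so the SD was 20 CPM in the KO and 1.49 in WT. The log2 fold change of 0.32 was not called (SE 0.16, adjusted p = 0.124), but it passed without KO library 1 (0.45, adjusted p = 0.0201). Without KO library 3 and WT libraries 2 and 3 it was smaller and not called (0.17, adjusted p = 0.364). EPHA6 (0.22, adjusted p = 0.225) and EPHA8 (-0.26, adjusted p = 0.116) overlapped between the groups.

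Of the ephrins, 37.5% were called, against 46% of all tested genes. Of 8 tested, EFNA5 and EFNB2 rose, EFNB1 fell and 5 were not called. EFNB1 (chrX:68828997-68842147), a transmembrane ephrin encoded on the X chromosome, was measured at 12.1, 13.04, 11.2, 10.8 and 11.7 CPM in the KO and 17.9, 20.98, 20.5, 18.9 and 20.6 CPM in WT. All KO libraries were lower, and the fall was 0.75 (SE 0.06, adjusted p = 3.08e-06). EFNB2, the transmembrane ephrin best known from arteries, moved the other way, from 15.8 ± 1.03 to 18.7 ± 1.37 CPM (SD, n = 5), a rise of 0.25 (adjusted p = 0.00566) without overlap. EFNA5, a lipid-anchored ephrin that maps retinal axons, gave 7.96, 7.84, 7.55, 8.73 and 8.17 CPM in the KO and 6.32, 6.13, 6.02, 6.22 and 6.83 CPM in WT. Its KO libraries were all above its WT libraries, and the rise was 0.35 (SE 0.06, adjusted p = 5.57e-04). EFNA4, the ephrin with the highest level per length, was at 16.7, 15.8, 15.4, 15.8 and 16.3 CPM in the KO and 15.98, 15.6, 15.8, 16.7 and 14.9 CPM in WT. The KO range lay within the WT range, with a log2 fold change of 0.02 (adjusted p = 0.773). EFNA1 (0.21, adjusted p = 0.125) overlapped too, but was called higher without KO library 3 and WT libraries 2 and 3 (0.32, adjusted p = 0.0485). EFNA2 (-0.08), EFNA3 (0.08) and EFNB3 (-0.14) had adjusted p from 0.0658 to 0.545.

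Of the 20 semaphorins, 7 fell (35%), 1 rose (5%) and 12 were not called, against 24.1% lower and 21.9% higher over all tested genes. The secreted class 3 had 2 falls among 7 (28.6%). SEMA3A, a repellent that acts through NRP1 and A-type plexins, was measured at 39.5, 35.9, 35.5, 35.3 and 34.5 CPM in the KO and 45.7, 47.4, 45.6, 49.9 and 48.4 CPM in WT. All KO libraries were lower, and the fall was 0.39 (SE 0.04, adjusted p = 1.93e-05). SEMA3G had 4.40, 5.62, 4.49, 3.59 and 5.01 CPM in the KO and 5.66, 6.20, 6.47, 6.54 and 5.68 CPM in WT. Its highest KO library (5.62) came just under its lowest WT library (5.66), and the fall of 0.40 (SE 0.11, adjusted p = 0.00962) was lost without KO library 3 and WT libraries 2 and 3 (-0.36, adjusted p = 0.054). SEMA3F (ENSG00000001617, chr3:50155045-50189075), a ligand of NRP2 and the most abundant of class 3 per length, was at 69.1, 71.7, 67.9, 70.2 and 69.4 CPM in the KO and 72.4, 72.7, 73.4, 68.6 and 71.6 CPM in WT. The groups overlapped, and its log2 fold change of -0.04 was not called (SE 0.03, adjusted p = 0.214). SEMA3B, SEMA3C, SEMA3D and SEMA3E had log2 fold changes from -0.12 to 0.38, and of these SEMA3E was the closest to a call (adjusted p = 0.0513).

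In the membrane-bound classes 4 to 7, SEMA4B, SEMA4D, SEMA4G, SEMA5A and SEMA6C fell and SEMA6B rose. SEMA6C was measured at 44.99, 43.1, 35.3, 36.1 and 39.99 CPM in the KO and 56.5, 57.5, 54.4, 58.2 and 55.6 CPM in WT. KO libraries 3 and 4 were the lowest, all KO libraries were below WT, and the fall of 0.50 (SE 0.06, adjusted p = 5.78e-05) was the largest called among semaphorins. SEMA4G gave 11.4, 12.01, 9.78, 10.51 and 11.2 CPM in the KO and 15.9, 14.7, 14.6, 13.4 and 13.8 CPM in WT. It fell by 0.40 (SE 0.06, adjusted p = 3.89e-04) without overlap. Its exons overlap MRPL43 on the opposite strand, at 50.9 CPM in the KO and 45.8 in WT. SEMA5A, which carries thrombospondin repeats beside its semaphorin domain, was at 17.7, 16.8, 16.7, 17.6 and 16.9 CPM in the KO and 20.9, 21.2, 23.3, 20.3 and 22.3 CPM in WT. All KO libraries were lower, and the fall was 0.33 (SE 0.04, adjusted p = 8.53e-05). SEMA4B and SEMA4D, the latter a ligand of plexin-B1, fell by 0.28 (adjusted p = 2.75e-04) and 0.22 (adjusted p = 3.33e-04).

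SEMA6A, a transmembrane ligand of A-type plexins and the most abundant semaphorin per length, was at 264, 259, 310.1, 303 and 302 CPM in the KO and 277, 260.3, 269, 254 and 288 CPM in WT. KO libraries 3, 4 and 5 were above all WT libraries, KO libraries 1 and 2 were within their range, and the log2 fold change of 0.09 was not called (SE 0.06, adjusted p = 0.188). The antisense gene SEMA6A-AS1 overlaps it at 0.81 CPM in the KO and 1.03 in WT. SEMA6B rose by 0.22 (adjusted p = 3.53e-04), from 90.3 ± 2.57 to 105 ± 5.08 CPM (SD, n = 5), without overlap. Not called were SEMA4A (0.05), SEMA4C (0.06), SEMA4F (0.03), SEMA5B (-0.13), SEMA6D (-0.61) and SEMA7A (0.07), the lipid-anchored ligand of PLXNC1. SEMA6D was spread widely in the KO, from 0.76 to 1.88 CPM, against 1.37 to 2.52 in WT, and its adjusted p was 0.0741.

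Of the 9 plexins, 6 fell (66.7%), 2 rose (22.2%) and PLXNA3 was not called (-0.06, adjusted p = 0.429). Over all tested genes 24.1% fell and 21.9% rose. PLXNA4 (ENSG00000221866, chr7:132123332-132648688), a semaphorin receptor of developing neurons, was measured at 1.38, 1.11, 1.06, 1.22 and 0.882 CPM in the KO and 3.87, 3.80, 4.62, 3.62 and 3.71 CPM in WT. The groups were far apart, and the log2 fold change of -1.80 (SE 0.12, adjusted p = 8.40e-07) was the largest of any member, a fall of 71.2%. This fall rests on 779 counts in WT and 198 in the KO, summed before scaling. PLXNB1, the plexin with the highest level per length, was at 185, 187, 177, 175 and 182 CPM in the KO and 235, 233, 217, 228 and 222 CPM in WT. It fell by 0.33 (SE 0.03, adjusted p = 5.95e-06), with every KO library below every WT library. PLXNA1 gave 163, 168, 183, 169 and 157 CPM in the KO and 208, 218, 216, 206 and 213 CPM in WT. Again no library overlapped, and the fall was 0.34 (SE 0.04, adjusted p = 3.23e-05). PLXND1, a receptor for SEMA3E, was at 79.5, 81.3, 87.1, 84.9 and 79.3 CPM in the KO and 107, 104, 105, 103 and 113 CPM in WT. It fell by 0.37 (SE 0.04, adjusted p = 1.10e-05) without overlap.

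PLXNA2 was measured at 2.92, 2.56, 3.595, 2.95 and 2.85 CPM in the KO and 3.97, 3.84, 4.42, 4.14 and 3.30 CPM in WT. KO library 3 was above the lowest WT library, and the fall was 0.41 (SE 0.11, adjusted p = 0.00935). PLXNB2 fell by 0.17 (adjusted p = 1.27e-04), from 148 ± 2.79 to 132 ± 2.81 CPM (SD, n = 5). PLXNB3 and PLXNC1 rose, both at a low level. PLXNB3 was at 2.15, 2.42, 3.68, 2.52 and 2.70 CPM in the KO and 2.23, 1.96, 1.80, 1.82 and 1.84 CPM in WT. KO library 3 was the highest, KO library 1 was below WT library 1, and the rise of 0.48 (SE 0.14, adjusted p = 0.0157) was lost without KO library 3 and WT libraries 2 and 3 (0.32, adjusted p = 0.105). PLXNB3 shares exonic sequence with SRPK3 on the same strand (0.84 CPM in the KO and 0.70 in WT). PLXNC1 gave 3.49, 3.09, 3.09, 3.31 and 2.53 CPM in the KO and 2.93, 2.25, 2.11, 1.71 and 2.55 CPM in WT. The groups overlapped, and the rise of 0.42 (SE 0.14, adjusted p = 0.0287) was the least stable call of the members. It was lost in 5 of the 10 fits that left out 1 library: KO 1 (adjusted p = 0.0546), KO 4 (0.062), WT 2 (0.0592), WT 3 (0.0633) or WT 4 (0.0567). It was lost as well without KO 3, WT 2 and WT 3 (0.126). PLXNC1 shares exonic sequence with CEP83 on the opposite strand (25.9 CPM in the KO and 22.8 in WT).

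The neuropilins moved in opposite directions. NRP1 (ENSG00000099250, chr10:33177492-33336262), the co-receptor that binds SEMA3A and also VEGF, was scarce, at 1.85, 1.42, 2.17, 1.53 and 1.59 CPM in the KO and 1.01, 0.929, 0.889, 0.579 and 0.680 CPM in WT. Every KO library was above every WT library, and NRP1 rose by 1.05 (SE 0.18, adjusted p = 5.29e-04), or 2.07-fold. This rise rests on 165 counts in WT and 300 in the KO, summed before scaling. NRP2, the co-receptor of SEMA3F and 95.8% of the neuropilin total per length in the KO, was at 39.04, 41.9, 54.8, 44.4 and 41.6 CPM in the KO and 57.8, 54.4, 56.4, 56.8 and 55.98 CPM in WT. KO library 3 was above the lowest WT library while the other 4 KO libraries were below all WT libraries, and the fall was 0.34 (SE 0.08, adjusted p = 0.00277). Without KO 3, WT 2 and WT 3 the log2 fold change of NRP2 was -0.45 (adjusted p = 2.34e-05).

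Among the 6 Slits and Robos, SLIT2 alone was called (16.7%, against 46% of all tested genes). SLIT2 (ENSG00000145147, chr4:20253260-20620561), a secreted repellent, was measured at 18.7, 18.8, 16.8, 16.98 and 16.8 CPM in the KO and 45.1, 46.2, 47.2, 45.6 and 45.1 CPM in WT. The lowest WT library was above 45 CPM and the highest KO library under 19 CPM, and the log2 fold change of -1.38 (SE 0.04, adjusted p = 5.49e-10), a fall of 61.6%, had the smallest p of the members. ROBO1, its receptor and the most abundant gene of this family per length, stood at 127, 123, 125, 127 and 119 CPM in the KO and 119, 119, 123, 124 and 127 CPM in WT. These values overlapped, with a log2 fold change of 0.02 (SE 0.03, adjusted p = 0.591). ROBO2 (0.04), ROBO3 (-0.13), SLIT1 (-0.35) and SLIT3 (-0.15) were not called, with adjusted p from 0.0678 to 0.724.

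Of the netrin genes, the ligand NTN1 was at 3.63, 4.03, 3.51, 3.46 and 3.47 CPM in the KO and 4.85, 4.73, 4.65, 4.98 and 4.96 CPM in WT. The groups did not overlap, and NTN1 fell by 0.42 (SE 0.07, adjusted p = 5.04e-04). DCC, the receptor for attraction to netrin-1, was under 1 CPM in both groups (0.60 ± 0.13 in the KO and 0.97 ± 0.18 in WT; SD, n = 5), and its fall of 0.69 (adjusted p = 0.0109) rests on 106 and 193 counts. UNC5B, a netrin receptor that mediates repulsion, was the abundant gene of the 3, at 53.7, 59.9, 63.7, 58.9 and 55.7 CPM in the KO and 57.1, 57, 58.95, 57.1 and 59.1 CPM in WT. The KO range enclosed the WT range, and the log2 fold change was 0.01 (adjusted p = 0.818).

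**Figure D2:**
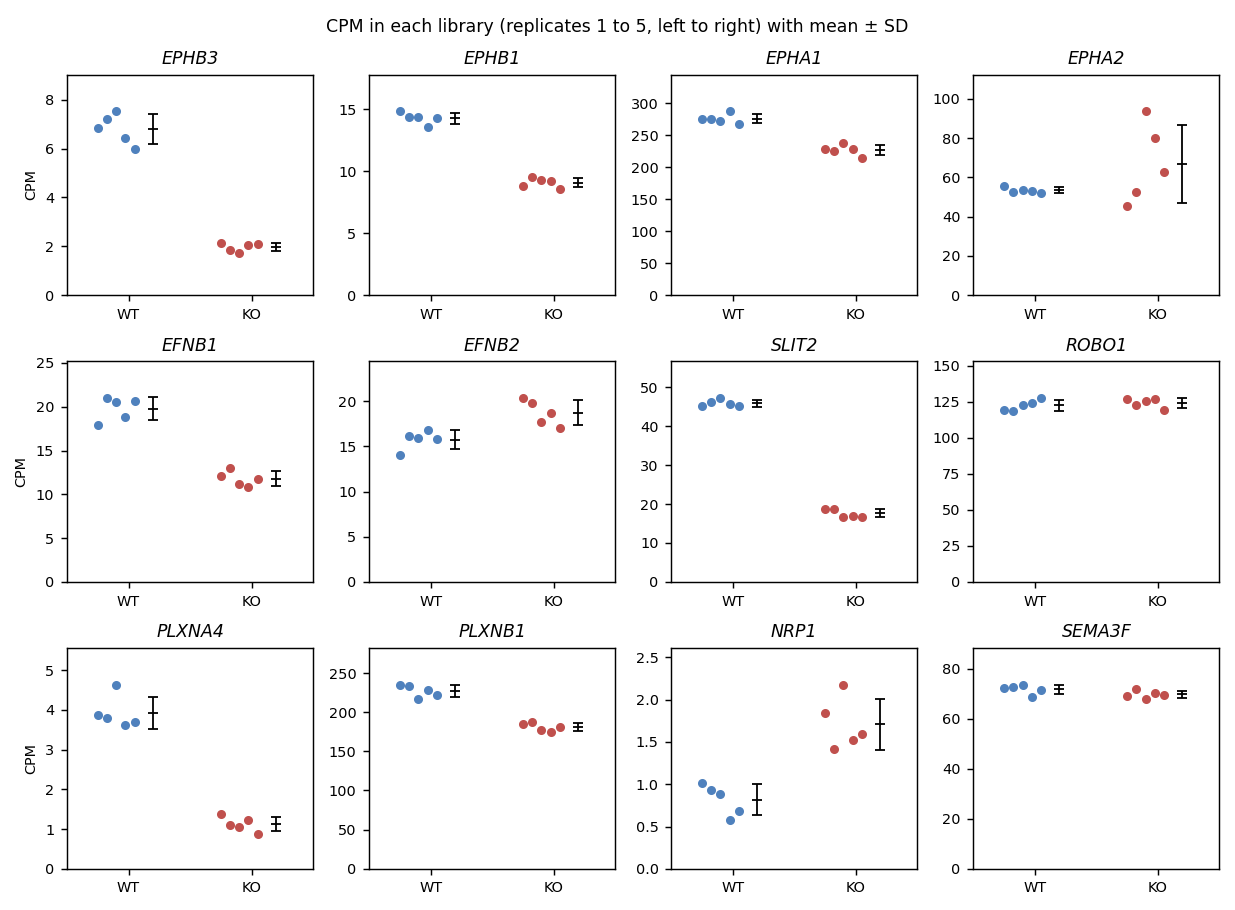
CPM (y axis, linear from 0) of 12 guidance genes in each library, WT in blue and KO in red, replicates 1 to 5 from left to right within a group, with the mean ± SD beside them. EPHB3, EPHB1, EPHA1, EFNB1, SLIT2, PLXNA4 and PLXNB1 are lower in every KO library, EFNB2 and NRP1 are higher in every KO library, ROBO1 and SEMA3F overlap, and EPHA2 spreads from 45.2 to 93.7 in the KO.

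**Figure D3:**
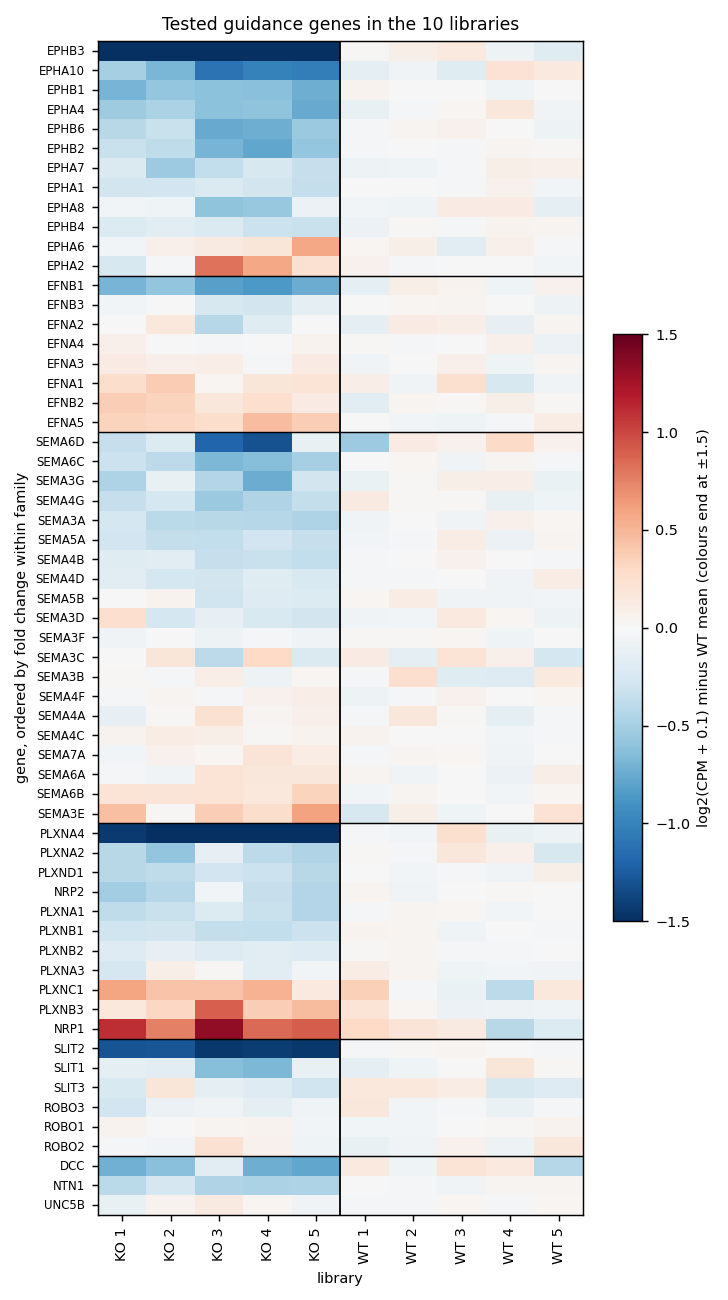
Each tested guidance gene (a line each, grouped by family and ordered by fold change) in the 10 libraries, as log2 of CPM plus 0.1 minus the WT mean, with colours ending at -1.5 and 1.5. The EPHB3, PLXNA4 and SLIT2 lines are dark blue in all 5 KO libraries, NRP1 is red in all 5, and EPHA2 is red mainly in KO libraries 3 and 4.

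The ratio of related genes within each library, each as counts per kilobase of transcript, was taken for 6 pairs. They were chosen after the values were seen, mostly from members with large differences, so the ratios are a description with no test. NRP1 over NRP2 was 0.0383 to 0.0536 in the KO libraries and 0.0115 to 0.0198 in WT (geometric means 0.0435 and 0.0161). EFNB1 over EFNB2 went from 1.89 in WT to 0.95 in the KO, with 1.69 to 1.96 over the WT libraries and 0.87 to 1.03 over the KO libraries. SLIT2 over its receptor ROBO1 was 0.33 in WT and 0.12 in the KO, and SLIT2 over SLIT3 was 23.5 and 9.94. EPHB3 over EPHB4 was 0.0413 and 0.0143, and PLXNA4 over PLXNA1 was 0.0121 and 0.00438. Transcript length enters each ratio, but as the same factor in every library of a pair. The change from WT to KO therefore does not depend on that factor. A trend on length or GC content that differs between libraries does not cancel in this way, and the ratios were not corrected for it.

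Levels of different genes can be compared only per transcript length, and CPM per kilobase was used for this. On that scale EPHA1 made up 50.8% of the Eph receptor total in the KO and 52.0% in WT, EPHB4 24.6% in each, and EPHA2 12.6% ± 3.33 and 8.55% ± 0.31 (SD, n = 5). EPHB3 went from 1.02% of that total in WT to 0.35% in the KO. The summed Eph receptor level was 125.9 to 141.9 CPM per kilobase in the KO libraries and 155.6 to 162.9 in WT, and the summed plexin level 77.4 to 81.3 and 94.9 to 98.4, without overlap in either family. Summed semaphorins (181.7 to 186.5 in the KO and 181.3 to 189.6 in WT) and summed ephrins (41.6 to 48.1 and 45.2 to 48.7) overlapped. SEMA6A, SEMA4C and SEMA6B together were the 3 highest semaphorins, at 22.8%, 18.4% and 14.4% of the semaphorin total in the KO. SLIT2 made up 20.4% of the Slit and Robo total in WT and 8.97% in the KO, while ROBO1 went from 62.0% to 72.2% of it. PLXNB1, PLXNB2, PLXNA1 and PLXND1 held nearly all of the plexin total (31.2%, 26.0%, 23.4% and 14.6% in the KO), and PLXNA4 was 0.10% of it in the KO and 0.30% in WT. So the largest fold changes were in members with a small share of their family: EPHB3, PLXNA4 and NRP1 each held under 5% of their own, and of these 4 genes only SLIT2 held more.

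The members are long transcripts, with a median of 5298 bases against 2701 over all tested genes. With the length and GC offset, 23 members fell and 14 rose, with a median log2 fold change of -0.10, against 22.1% and 22.6% of all tested genes. All 6 rises and 23 of the 27 falls were kept. The 4 falls that were lost were SEMA4D (-0.08, adjusted p = 0.0631), NRP2 (-0.19, adjusted p = 0.0501), PLXNA2 (-0.18, adjusted p = 0.191) and PLXNB2 (-0.03, adjusted p = 0.264). The 8 rises gained were SEMA3E, SEMA4C, SEMA4F, SEMA6A, SEMA7A, ROBO1, ROBO2 and UNC5B, among them SEMA6A at 0.25 (adjusted p = 0.00213), UNC5B at 0.17 (adjusted p = 0.00224) and ROBO1 at 0.15 (adjusted p = 3.36e-04). All 9 Eph receptor falls were kept, with a family median of -0.37 in place of -0.45. The semaphorins had 6 lower and 6 higher with the offset, and the plexins and neuropilins 4 lower and 3 higher. The falls of EPHB3 (-1.71), PLXNA4 (-1.55) and SLIT2 (-1.27) and the rise of NRP1 (1.15) stayed past 1. The sign changed for 6 members, called neither with nor without the offset: EFNA4 (to -0.10), SEMA3B (0.02), SEMA3C (0.03), SEMA3F (0.02), PLXNA3 (0.15) and SLIT3 (0.06).

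**Figure D4:**
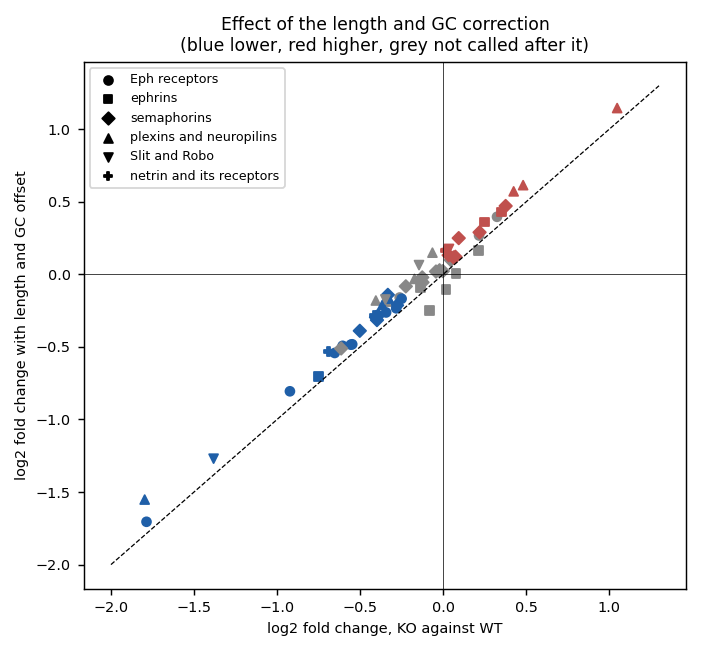
Log2 fold change of each tested member without the length and GC offset (x axis) and with it (y axis), the dashed line marking equal values. Points are coloured by the call with the offset (blue lower, red higher, grey not called) and shaped by family. Most points lie above the line, and EPHB3, PLXNA4, SLIT2 and NRP1 keep their place at the ends.

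The authors' deposited table of KO against WT marks 7 members with its call YES: EPHA10, EPHB1, EPHB3, EFNB1, PLXNA4 and SLIT2 as lower and NRP1 as higher. In the authors' deposited table that call covers 2.4% of all 32152 genes as lower and 1.39% as higher, and its smallest absolute log2 fold change is 0.585. Its log2 fold changes are -1.62 for EPHB3, -1.54 for PLXNA4, -1.35 for SLIT2 and 0.81 for NRP1 in the authors' deposited table. All 33 members called here have the same sign in the authors' deposited table.

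A list of 69 other genes of these pathways (further receptors, co-receptors and effectors inside the cell) had 34 lower and 9 higher of 65 tested. These are 52.3% and 13.8%, against 24.1% and 21.9% of all tested genes, and the median log2 fold change was -0.15. With the length and GC offset it had 21 lower and 16 higher, against 22.1% and 22.6% of all tested genes. Without KO library 3 and WT libraries 2 and 3 it had 28 lower and 7 higher of 65, against 18.5% of all genes in each direction. None passed the test against 0.5, which 2.46% of all tested genes passed as lower and 1.33% as higher. By subgroup, the Slit, Robo and netrin effectors had 8 lower and 0 higher of 12, the semaphorin and plexin effectors 10 lower and 4 higher of 19, the Eph and ephrin effectors 7 lower and 1 higher of 13, the co-receptors 3 lower and 2 higher of 7, and the further ligands and receptors 6 lower and 2 higher of 14. With the offset the Slit, Robo and netrin effectors had 3 lower and 3 higher, and the semaphorin and plexin effectors 5 lower and 5 higher. The 8 with the smallest p are named. ABLIM1, an actin-binding protein linked to netrin signals, fell by 0.38 (adjusted p = 1.13e-05). NEO1, a netrin receptor related to DCC, fell by 0.33 (adjusted p = 1.28e-05). PTK7, a kinase-like co-receptor, fell by 0.21 (adjusted p = 1.80e-05). CRMP1, which relays SEMA3A to the cytoskeleton, fell by 0.38 (adjusted p = 3.17e-05). ARHGEF12, which binds B-type plexins, fell by 0.30 (adjusted p = 5.04e-05). FARP1, an exchange factor for Rac, fell by 0.19 (adjusted p = 7.39e-05), but was at 0.01 with the offset (adjusted p = 0.783). L1CAM, an adhesion molecule in the SEMA3A receptor complex, rose by 0.44 (adjusted p = 3.25e-05). GIPC1, which binds the tail of NRP1, rose by 0.27 (adjusted p = 3.00e-05). These 8 were picked by p, and for all of them the KO and WT libraries did not overlap. Over the 65 tested genes of the list, 25 were lower and 8 higher without overlap. The shares over all tested genes were 17.7% and 16.3%.

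The called members were spread over the genome. Of 12 tested members on chromosome 3, 6 fell (EPHB1, EPHB3, SEMA3G, PLXNA1, PLXNB1 and PLXND1) and none rose. Of 8 on chromosome 7, where KCNH2 also lies, 5 fell (EPHA1, EPHB4, EPHB6, SEMA3A and PLXNA4) and none rose. Of 10 on chromosome 1, 4 fell (EPHA10, EPHB2, SEMA6C and PLXNA2) and none rose. Over all tested genes, on any chromosome, 24.1% fell and 21.9% rose. Shares for all genes of a single chromosome were not taken, and a part of position was not tested. The 6 members that rose lay on chromosomes 5 (EFNA5), 10 (NRP1), 12 (PLXNC1), 13 (EFNB2), 19 (SEMA6B) and X (PLXNB3). Exons of 22 members overlap those of another gene in GENCODE 29, and for 6 of them the other gene was at 1 CPM or more: EPHA1, EPHB4, SEMA4G, SEMA6A, PLXNA3 (LAGE3, 35.3 CPM in the KO and 28.5 in WT) and PLXNC1. For these 6, reads of the overlapping stretch cannot be assigned without the strand setting. SRPK3, under 1 CPM, overlaps PLXNB3 on the same strand, where a strand setting would not separate the reads.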

How the data were processed

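The 10 libraries (5 KO, 5 WT) were made from polyA RNA and read over 150 paired-end cycles, per the labels. The authors' raw counts, 1 column a library, carry no normalization. The authors' deposited table of KO against WT gives each gene a mean normalised signal, a log2 fold change, its SE (in log2), a score equal to their quotient, and p-values before and after adjustment. It supplied the gene symbols by which members were chosen, and the comparison named in the text. Genome build hg38 and the tools DESeq2 and R 3.6.3 appear in the submitters' processing notes. Aligner, counter, annotation and use of strand: not given in the sources used here. Libraries of a group differed by more than sampling noise (chi-square per degree of freedom 3.59 to 26.2 over genes of at least 20 counts), so none was treated as deposited more than once. This does not show that they were separate cultures.

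Testing used edgeR 4.0.16 under R 4.3.3, with TMM scaling, filterByExpr, glmQLFit and glmQLFTest on group. P-values were adjusted by Benjamini-Hochberg over all 19163 genes kept, and called under 0.05. The SE is the absolute log2 fold change over the square root of F. CPM is the count over the TMM-scaled library total. The limit set by a count of 0 covers counting error only, as reads carry no molecular identifiers. CPM per kilobase takes 1 transcript a gene from GENCODE 29 (best APPRIS rank, then the longest). For the length and GC offset, log2(CPM + 0.5) of each library was fitted by natural splines with 5 degrees of freedom, and 98.9% of genes kept had both values. Principal components used a prior count of 2. RefSeq promoter windows (GRCh38.p14) matched 54 of 62 members.

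Members, lists, tests and alternatives were chosen with earlier results of these data known. Values in every library are given for SEMA3F, EPHA1, the 24 members with the largest absolute log2 fold change among those called at a mean of at least 1 CPM in the higher group, and the member with the highest level per length in each family. Members called but under 1 CPM in both groups have group values only, and EPHA2 was named after its values were seen. Of the other pathway genes, the 8 with the smallest p are named. Also tried were size factors or the Wald test of DESeq2 1.42.0, voom (limma 3.58.1), no filter on low counts, a filter of 1 CPM in 5 libraries, the replicate number as a block, glmTreat at 0.5, the offset, and fits lacking each library in turn. The fit lacking KO 3, WT 2 and WT 3 and the fit with 1 surrogate variable (sva 3.50.0) were chosen after seeing the data. The fitting steps were tested on simulated data.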

Additional observations from a re-analysis of the deposited data

Results flagged for a closer look

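In 122 groups of 5 libraries (60 members and KCNH2, in KO and WT), 8 had a highest or lowest library set apart from the other 4 by most of the group's range. Chance gives this in about 1 in 20 groups. EFNA3 was lowest in KO library 4, at 10.16 CPM against 11.01 to 11.31 in the others. SEMA3D was highest in KO library 1, at 4.297 CPM against 2.96 to 3.289. SEMA6B was highest in KO library 5, at 114.0 CPM against 100.8 to 104.2. DCC was highest in KO library 3, at 0.836 CPM against 0.512 to 0.584. NTN1 was highest in KO library 2, at 4.032 CPM against 3.462 to 3.626. SEMA4D was highest in WT library 5, at 66.01 CPM against 59.27 to 60.77. PLXNA4 was highest in WT library 3, at 4.624 CPM against 3.616 to 3.868. ROBO3 was highest in WT library 1, at 23.71 CPM against 19.67 to 20.74. These 8 values fell in 8 different libraries.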

How the results depend on the processing

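Of 799 comparisons of 40 named genes with their alternatives, 751 kept the direction and the side of the threshold. In 39 the gene no longer passed, 29 of them with glmTreat, in 3 it newly passed and in 6 the sign changed. The cause was not tested. The sign changed with the length and GC offset for EFNA4 (-0.10), SEMA3F (0.0198) and FARP1 (0.00838). Over the fits that left out 1 library, the EFNA4 log2 fold change ran from -0.00189 (without WT library 5) to 0.0383 and the UNC5B log2 fold change from -0.019 (without KO library 3) to 0.0546. Without KO 3, WT 2 and WT 3 the latter was -0.0171. With glmTreat, whose own construction asks for more than 0.5, KCNH2 stayed at -0.35 (adjusted p = 1). With it, 1 member was higher and 5 lower, and of the other pathway genes 0 and 0. By family it left 2 Eph receptors lower, 0 ephrins higher, 0 semaphorins higher and 0 lower, 1 plexin or neuropilin higher and 1 lower, and 0 netrin genes lower. With the offset, 14 members were higher, as were 16 of the other pathway genes (21 lower), 6 semaphorins, 2 Slit and Robo genes and 1 netrin gene, and 4 plexins and neuropilins were lower. With limma voom 2 ephrins and 2 Slit and Robo genes were lower. Semaphorins called higher were 3 with DESeq2 size factors, 2 with the DESeq2 Wald test and 2 at 1 CPM in 5 libraries, where 1 netrin gene was lower. With 1 surrogate variable 1 Eph receptor was higher and 2 Slit and Robo genes lower, and without KO 3, WT 2 and WT 3 there was 1 plexin or neuropilin higher.

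Leaving out each library in turn gave 5 to 7 members higher and 27 to 29 lower, 0 to 1 Eph receptors higher, 2 to 3 ephrins higher and 1 to 2 lower, 1 to 2 semaphorins higher and 7 to 8 lower, 2 to 3 plexins and neuropilins higher, and 8 to 12 of the other pathway genes higher and 30 to 34 lower. PLXNC1 was the 1 called member to lose its call in any of these 10 fits. Deviations of same-numbered KO and WT libraries correlated at 0.173, -0.157, 0.698, 0.198 and 0.176. With 1 pair below 0 and no label of a shared source, the numbers were not treated as pairing the samples. With a replicate block 6 members were higher and 28 lower, and SEMA5B was added (adjusted p = 0.0426), while 8 of the other pathway genes were higher and 32 lower. Of the KO libraries, KO 3 alone correlated best with the WT library of its own number. Genes under 1 CPM, such as DCC, are limited by depth.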
